A study of Mus musculus with 7 samples.

Results

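Axon guidance ligands and receptors were followed through the cells of 7 mouse tumors. The members are the 70 genes, of 33696 in the feature list, whose symbols belong to the semaphorin classes 3 to 7 (20 genes), plexins (12), Slits (3), Robos (4), Unc5 receptors (5), netrins (4), Eph receptors (14) and ephrins (8). They were chosen by symbol alone, which also took in 3 antisense genes at the Plxna4 locus and Unc5cl, a gene related to the Unc5 receptors by name. Tumors came from JW23.3, a mouse malignant peripheral nerve sheath tumor (MPNST) cell line that carries mutations in Nf1 and Trp53. Cells were placed under the flank skin of female wildtype C57/B6 mice, 5 to 6 weeks of age, and all tumors were taken on day 21. The irradiated group (4 tumors) received 5 fractions of 2 Gy, 1 a day, to the tumor after randomization on day 7, and the control group (3 tumors) received none. All groups share 1 cell line and 1 mouse strain, and each tumor gave 1 droplet library from a papain digest.

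Axon guidance cues were described first in growing nerves, where cells that carry a receptor turn towards or away from a ligand. Slits bind Robo receptors, netrins bind Dcc and Unc5 receptors, semaphorins bind plexins, some of them through neuropilins, and ephrins bind Eph receptors on the cell they touch. The same molecules act in blood vessels and immune cells: Efnb2 and Ephb4 mark arteries and veins, Robo4 is an endothelial receptor, and Sema4d was first known as the lymphocyte protein CD100.

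Over the 7 tumors, 39537 cells were deposited with 646559899 UMIs (unique molecular identifiers, each standing for 1 captured transcript), with a median per cell from 6058.5 in control tumor 2 to 17930.5 in control tumor 1. Of the 34297 cells kept, 14848 were MPNST-like, 11857 macrophage-like, 1286 T/NK-like, 452 endothelial-like, 192 pericyte-like, 185 dendritic-like and 230 fibroblast-like by their marker genes, and none of those markers is a member. Pairs of libraries shared 3 to 19 cell barcodes. The MPNST-like cells carried the tumor markers Crabp1 (mean 1715 CPM, the UMIs of a gene per 1000000 UMIs) and Col11a1 (1456 CPM), whereas the Schwann cell markers Sox10, Ngfr and Erbb3 were at 0.0298, 0.0356 and 0.101 CPM, so the labelled MPNST identity rests here on the other markers. No label names a batch. From stress transcripts, mitochondrial share, depth, the genes detected in a cell and the number of cells, 2 sets of libraries that cross the groups were inferred from the data: irradiated tumor 1 with control tumors 2 and 3, and irradiated tumors 2, 3 and 4 with control tumor 1. Of 63 splits this one left the smallest share of the variation within sets, 0.549, beside 0.598 for the next. Levels are CPM of the UMIs of a class in a tumor, and a tumor entered a class with 20 cells or more, which left 7 tumors for MPNST-like, macrophage-like and T/NK-like cells, 6 for endothelial-like (without irradiated 2) and pericyte-like (without irradiated 4), and 5 for dendritic-like (without irradiated 2 and 3) and fibroblast-like cells (without irradiated 4 and control 1). CPM values of different genes are not divided by length, and whether intronic reads were counted is not given in the sources used here, so no order between genes is drawn.

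The promoters of Slit2, Robo4 and Plxnc1 are shown, since the results below set these members apart in tumor, endothelial-like and dendritic-like cells in turn (RefSeq, GRCm38.p6, 250 bases before to 50 after the start, strand of the gene). The Slit2 window lies on the plus strand at chr5:47982905-47983204, and its capitals mark 1 TATA box (TATAAA) and 3 GC boxes (GGGCGG). The Robo4 window lies on the plus strand at chr9:37401722-37402021, and the Plxnc1 window on the minus strand at chr10:94944796-94945095, where capitals mark the ETS core (GGAAG, or CTTCC on the other strand), with 3 and 4 matches.
Slit2: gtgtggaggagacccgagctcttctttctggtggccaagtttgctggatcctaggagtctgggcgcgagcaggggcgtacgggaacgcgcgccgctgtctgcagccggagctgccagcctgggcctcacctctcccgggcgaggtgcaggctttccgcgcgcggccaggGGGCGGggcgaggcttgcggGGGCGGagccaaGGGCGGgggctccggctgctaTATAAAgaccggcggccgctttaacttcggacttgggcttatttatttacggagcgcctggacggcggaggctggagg
Robo4: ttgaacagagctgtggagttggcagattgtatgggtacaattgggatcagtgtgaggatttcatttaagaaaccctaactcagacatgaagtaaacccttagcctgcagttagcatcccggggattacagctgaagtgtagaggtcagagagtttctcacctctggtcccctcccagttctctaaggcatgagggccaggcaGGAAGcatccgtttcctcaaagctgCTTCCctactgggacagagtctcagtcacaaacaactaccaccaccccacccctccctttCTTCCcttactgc
Plxnc1: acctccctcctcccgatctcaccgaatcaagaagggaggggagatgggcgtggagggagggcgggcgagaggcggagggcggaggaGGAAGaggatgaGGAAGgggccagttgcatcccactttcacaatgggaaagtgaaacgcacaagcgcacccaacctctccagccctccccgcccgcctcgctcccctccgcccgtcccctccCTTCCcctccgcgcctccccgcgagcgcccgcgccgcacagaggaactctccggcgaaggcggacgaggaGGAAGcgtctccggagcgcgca
Over both strands, TATAAA was found in 13.6%, GGGCGG in 35.7% and GGAAG in 71.4% of 32851 promoter windows of this length, so the ETS core letters are common to most windows. A match is a description of the letters only. Of the 70 members, 58 had a window in the table.

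Summed over all members, the guidance genes took 7085 ± 1183 CPM (SD, n = 7) in MPNST-like cells, 4045 ± 1130 CPM (n = 5) in fibroblast-like, 2839 ± 321 CPM (n = 6) in endothelial-like and 2805 ± 515 CPM (n = 6) in pericyte-like cells. The immune classes had lower sums, with 1014 ± 109 CPM (n = 5) in dendritic-like, 809 ± 106 CPM (n = 7) in T/NK-like and 579.6 ± 58.9 CPM (n = 7) in macrophage-like cells. The lowest MPNST-like tumor, at 5205 CPM, stood above every tumor of the endothelial-like, pericyte-like and immune classes, and overlapped the fibroblast-like range (2466 to 5549 CPM). Few genes made most of the MPNST-like sum: Slit2, Slit3, Efna5, Robo2 and Unc5c had means of 2063, 1153, 978, 625 and 497 CPM. The order of classes is thus not one of every family. Mean sums of Slits, Robos, Unc5 receptors and ephrins were highest in MPNST-like cells. Those of semaphorins and plexins were highest in endothelial-like, of Eph receptors in fibroblast-like and of netrins in pericyte-like cells. Each class was then compared with the mean of the other 6, with the tumor as a block, and a member was called higher at an adjusted p under 0.05 and a log2 difference of at least 1. Of the 70 members, 43 passed the filter on low counts and 27 did not. A gene could pass this filter through 1 class where it was high, which favors calls of higher among the genes tested. Of the 43 members, 0 were called higher in no class, and nothing is read from the shares called higher below. By level, 7 members (Epha5, Epha6, Epha8, Epha10, Plxnb3, Plxna4os2 and Plxna4os3) stayed under 1 CPM in every class.

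**Figure D1:**
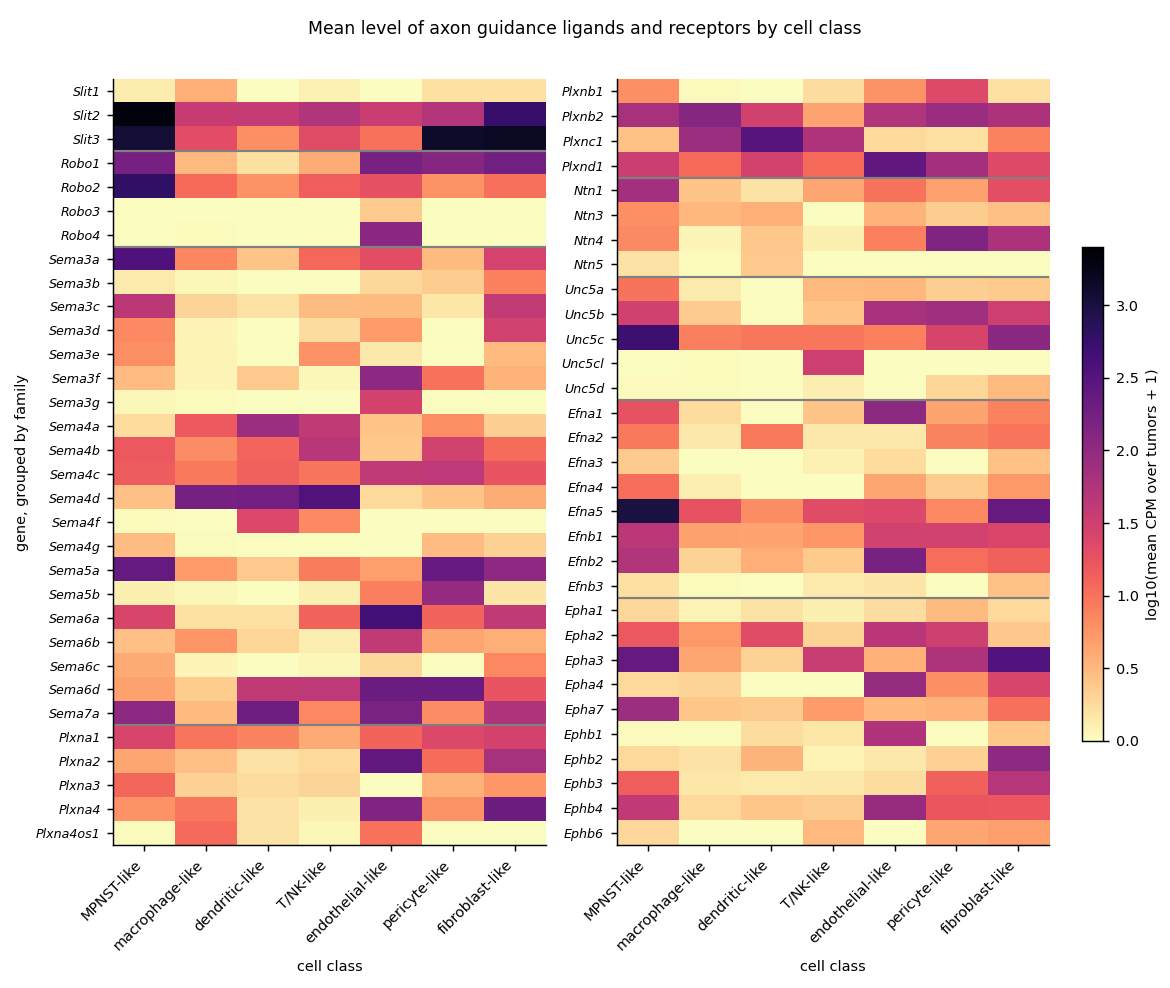
Mean level of 63 members (rows, by family) in the 7 cell classes (columns), as log10 of the mean CPM over tumors plus 1, with darker cells for higher levels. The plot shows Slit2, Robo2, Sema3a and Efna5 darkest in MPNST-like cells, Robo4 and Sema3g in endothelial-like cells, and Sema4d and Plxnc1 in the 3 immune classes.

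Slit2 and its receptor Robo2 were both called higher in MPNST-like cells. Here 23 of 43 tested members were called higher than the mean of the other classes, against 20.8% of all genes tested, 4 were called lower (11.4% of all genes), and 7 were higher than the largest other class as well (2.71% of all genes). Slit2, a secreted ligand of the Robo receptors, was at 1783, 2110, 2043 and 2580 CPM in irradiated tumors 1 to 4 and at 2394, 1993 and 1538 CPM in control tumors 1 to 3. Every tumor stood at 1538 CPM or more, and the groups overlapped. The log2 difference from the mean of the other classes was 5.35 ± 0.27 (SE, adjusted p = 4.46e-18), and 1.93 ± 0.47 from fibroblast-like cells, the largest other class (adjusted p = 0.000393). Slit3, the other abundant Slit, had a mean of 1153 ± 468 CPM (SD, n = 7), and its difference from the largest other class did not pass the test (log2 difference -0.35, adjusted p = 0.418). Robo2, a Slit receptor, was at 714, 736, 509 and 657 CPM in irradiated and 605, 760 and 395 CPM in control tumors. Its log2 difference was 6.30 ± 0.30 against the mean of the other classes and 5.28 ± 0.52 against endothelial-like cells. Robo1, which binds the same ligands, was at 169 ± 28.4 CPM (n = 7) and was shared with the vascular and fibroblast-like classes.

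Other cues and receptors of the tumor cells came from each family. Efna5, a membrane-anchored ephrin, ran from 747 to 1186 CPM with a mean of 978 ± 167 CPM (n = 7), and was 2.31 ± 0.45 higher on the log2 scale than in fibroblast-like cells. Sema3a, a secreted semaphorin that repels axons, ran from 298 to 485 CPM (mean 359.7 ± 62.8), 4.00 ± 0.49 above fibroblast-like cells. Unc5c, a netrin receptor, had the mean 497 ± 195 CPM, and its values split within the irradiated group: 552 and 784 CPM in irradiated tumors 1 and 2, 275 and 249 CPM in irradiated tumors 3 and 4. Control tumors, at 577, 634 and 409 CPM, lay within that range. Ntn1, a netrin, was at 70.5 ± 39.5 CPM, with 95.7 and 150 CPM in irradiated tumors 3 and 4 and 35.6 to 55.8 CPM in the other 5 tumors. Epha7, an Eph receptor for A-type ephrins, was at 79.2 ± 12.0 CPM, the seventh member above the largest other class. Epha3, another receptor of this type, reached 226 ± 50.8 CPM in MPNST-like and 325 ± 241 CPM (n = 5) in fibroblast-like cells, and the log2 difference of 0.39 in favor of the latter did not pass the test (adjusted p = 0.396). Plxnc1, Sema4a, Sema4d and Sema6d were called lower in MPNST-like cells.

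**Figure D2:**
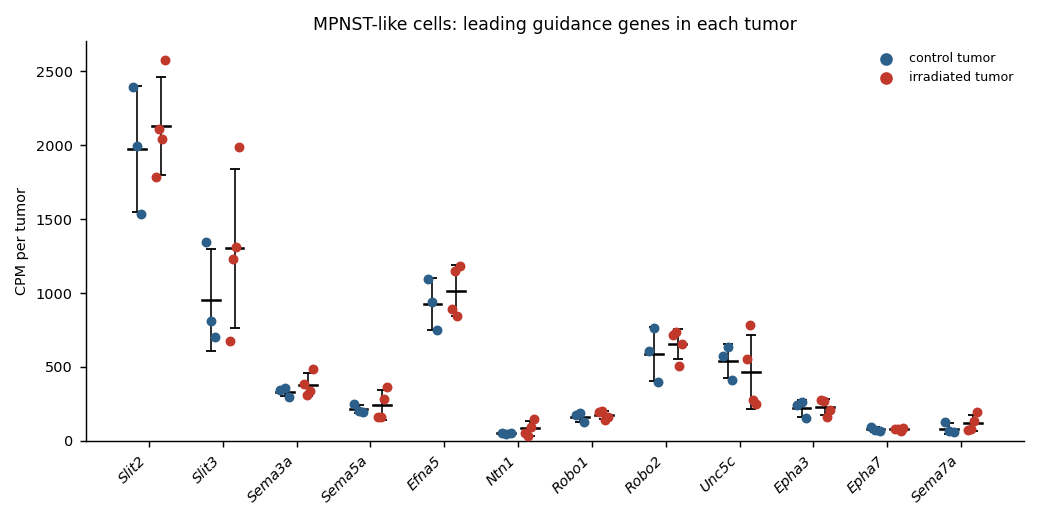
CPM of 12 members in MPNST-like cells (y axis, linear), with 1 point per tumor in blue for 3 control and red for 4 irradiated tumors, and black lines for the mean and SD. Slit2 sits at 1538 CPM or more in all 7 tumors, and the groups overlap for each gene.

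No guidance gene of MPNST-like cells was called between irradiated and control tumors. With edgeR's quasi-likelihood test 0 of 57 members passed the adjusted threshold, against 0% of all 17419 genes tested, and 1 passed the unadjusted one (Plxna2, -0.72 ± 0.31), against 1.23% of all genes. DESeq2 called 0 as well. The members' median log2 change was 0.06, beside 0.00 over all genes, and no member's groups were free of overlap (2.38% of all genes). For the 27 members at 10 CPM or more, the change ran from -0.37 (Sema6a) to 0.59 (Ntn1), with standard errors from 0.11 to 0.52. The members with the smallest p after Plxna2 were Ephb2 (0.50 ± 0.30), Unc5a (0.39 ± 0.26) and Ntn1 (0.59 ± 0.41) upward and Efna4 (-0.22 ± 0.19) and Sema6d (-0.29 ± 0.25) downward. Their mean levels were 0.839, 8.87, 70.5, 9.68 and 3.64 CPM in this order, and that of Plxna2 was 3.29 CPM, so all but Ntn1 lay under 10 CPM.

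Members of the semaphorin, ephrin, plexin, Eph and Robo families were called higher in endothelial-like cells. There 22 of 43 members were called higher than the mean of the other classes (14.9% of all genes), and 12 were higher than the largest other class (3.5% of all genes): Efna1, Efnb2, Epha4, Ephb1, Ephb4, Plxna2, Plxnd1, Robo4, Sema3f, Sema3g, Sema6a and Sema6b. Among ligands, Sema6a, a transmembrane semaphorin that binds plexins A2 and A4, ran from 327 to 662 CPM (mean 458 ± 139, n = 6), 6.08 ± 0.24 on the log2 scale above the other classes. Sema6d, of the same class of semaphorins, was at 204.5 ± 75.6 CPM beside 206 ± 63.7 CPM in pericyte-like cells (log2 difference -0.14, adjusted p = 0.624). Efnb2, the arterial ephrin, was at 162 ± 33.9 CPM, and the secreted Sema3f and Sema3g were at 104.9 ± 25.2 and 27.6 ± 11.5 CPM. Among receptors, Plxnd1, a plexin of developing vessels, ran from 211 to 297 CPM (257.5 ± 37.0) and Plxna2 from 200 to 297 CPM (248 ± 39.0). Ephb4, the venous partner of Efnb2, was at 86.9 ± 20.2 CPM, 1.05 ± 0.21 above MPNST-like cells, and Epha4, which binds both ephrin types, was at 89.2 ± 41.7 CPM. Robo4, whose promoter is shown above, was at 83.2, 135 and 137 CPM in irradiated tumors 1, 3 and 4 and at 132, 93.5 and 94.2 CPM in controls, and 466 of its 477 UMIs lay in this class. The other 11 UMIs lay in MPNST-like and macrophage-like cells, and no fold is given. Robo1 was at 163 ± 76.5 CPM, beside 169, 124 and 181 CPM in MPNST-like, pericyte-like and fibroblast-like cells.

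**Figure D3:**
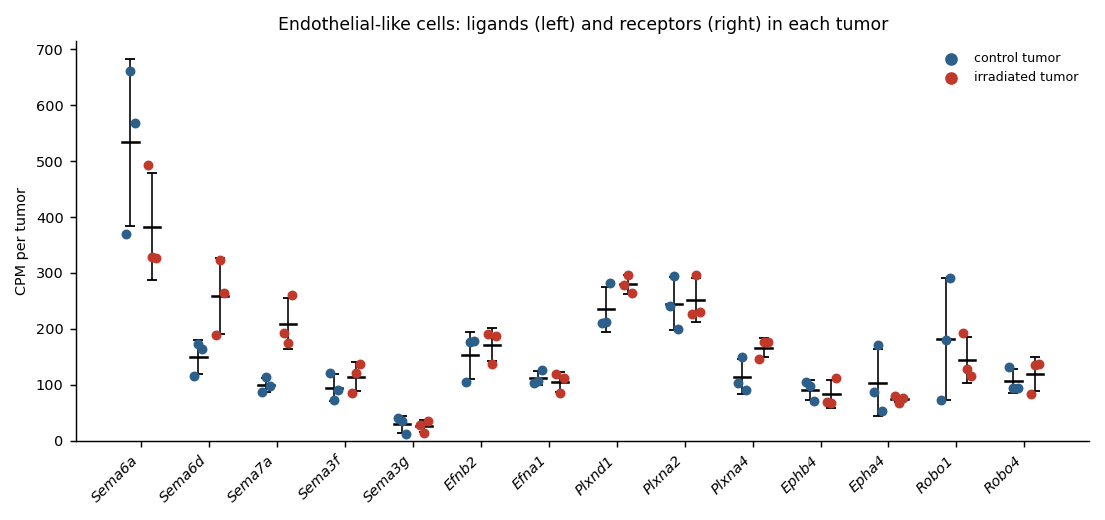
CPM of 7 ligands and 7 receptors in endothelial-like cells (y axis, linear), with 1 point per tumor in blue for 3 control and red for 3 irradiated tumors, and black lines for the mean and SD. Irradiated tumors stand above controls for Sema7a and Sema6d, and the groups overlap for Sema6a, Efnb2, Ephb4 and Robo4.

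With irradiation, 0 of 25 members tested in endothelial-like cells passed the adjusted threshold (0% of all genes), 4 passed an unadjusted p of 0.05 (4.78% of all genes), and DESeq2 called 0. The groups did not overlap for 3 members, against 9.96% of all genes. Sema7a, a membrane-anchored semaphorin that binds integrins and Plxnc1, was at 193, 174 and 261 CPM in irradiated tumors 1, 3 and 4 and at 87.7, 113 and 97.3 CPM in controls. Its log2 change was 1.03 ± 0.22 (adjusted p = 0.522), with 0.88 and 1.27 within the sets of libraries inferred from the data. Since its groups did not overlap, the direction within each set was fixed in advance. The 17 endothelial-like cells of irradiated tumor 2, too few to enter the test, gave 47.7 CPM, below each control. Sema6d (0.74 ± 0.24) and Plxna4 (0.50 ± 0.23) had positive changes and Efna5 a negative one (-1.48 ± 0.45), with adjusted p from 0.869 to 0.987. The summed tumor markers in these cells were 236 to 402 CPM in irradiated and 289 to 519 CPM in control tumors. Nes, Tnc and Ncam1 had means of 83.1, 76.6 and 74.6 CPM of this. Nes was at 11.9 CPM in MPNST-like cells, so the sum is not a measure of tumor RNA alone. The part of tumor RNA in the Efna5 change was not tested.

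The other stromal classes shared Slit3 with the tumor cells. In pericyte-like cells 19 of 43 members were called higher (16% of all genes) and 3 were above the largest other class (3.06%): Ntn4, Plxnb1 and Sema5b. Slit3 ran from 805 to 1838 CPM (mean 1336 ± 368, n = 6). Ntn4, a netrin of basement membranes, was at 137.5 ± 56.2 CPM, 1.09 ± 0.32 above fibroblast-like cells, and Sema5b was at 91.8 ± 37.9 CPM, 3.56 ± 0.42 above endothelial-like cells. Sema5a, its relative, was at 228 ± 68.0 CPM, beside 231.7 ± 73.6 CPM in MPNST-like cells (log2 difference -0.075, adjusted p = 0.838). With irradiation 0 of 12 members passed (0% of all genes), 0 passed an unadjusted p of 0.05 (2.67% of all genes), and DESeq2 called 0. The smallest p belonged to Sema5b (0.67 ± 0.33) and Slit2 (-0.87 ± 0.46).

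In fibroblast-like cells 21 of 43 members were called higher (19.7% of all genes) and 2 were above the largest other class (2.69%): the B-type Eph receptors Ephb2, at 109.9 ± 33.6 CPM (n = 5) and 5.53 ± 0.50 above dendritic-like cells, and Ephb3, at 50.5 ± 9.69 CPM and 2.05 ± 0.27 above MPNST-like cells. Slit3 reached 1474 ± 677 CPM, Slit2 575 ± 191 CPM, Efna5 228 ± 179 CPM and Plxna4, a receptor for class 6 and class 3 semaphorins, 201 ± 132 CPM. In these cells 10 tumor markers were at a median of 27.7% of their MPNST-like level, from 0.846% for Gap43 to 177% for Tnc. Over all 7 tumors Robo2 stood at 1.43% and Slit2 at 34.0% of its MPNST-like level, and the part of tumor RNA in these levels was not tested. With irradiation 0 of 24 members passed (0.0154% of all genes, 1 gene), 2 passed an unadjusted p of 0.05 (4.45% of all genes), and DESeq2 called 0. Those were Unc5c, at 124, 191 and 187 CPM in irradiated tumors 1 to 3 and 51.9 and 7.68 CPM in control tumors 2 and 3 (2.33 ± 0.58, adjusted p = 0.913), and Sema5a, at 82.8, 44.9 and 79.2 CPM against 172 and 138 CPM (-1.20 ± 0.33, adjusted p = 0.913). Values of these members rest on 20 to 64 cells per tumor.

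The 3 immune classes carried class 4 semaphorins and the plexin Plxnc1, while Plxnb2 was high among them in macrophage-like cells only. Sema4d, the ligand of B-type plexins, ran from 134 to 226 CPM in macrophage-like cells (mean 168.9 ± 32.5, n = 7), from 129 to 275 CPM in dendritic-like (175 ± 58.7, n = 5) and from 285 to 407 CPM in T/NK-like cells (334.9 ± 52.2, n = 7). Every T/NK-like value lay above every macrophage-like value, a log2 difference of 0.72 with an adjusted p of 4.65e-06, while the mean in MPNST-like cells was 1.8 CPM. Plxnc1, the receptor of Sema7a, was at 298.9 ± 75.6 CPM in dendritic-like, 78.9 ± 14.2 CPM in macrophage-like and 55.2 ± 16.6 CPM in T/NK-like cells, and the dendritic-like level was 1.67 ± 0.20 above the macrophage-like one. Plxnb2, a receptor of Sema4d, was at 123.6 ± 8.77 CPM in macrophage-like cells, against 29.4 CPM in dendritic-like and 3.4 CPM in T/NK-like cells. It was not particular to immune cells, with 82.6 CPM in pericyte-like cells. Pooled over all tumors, fibroblast-like and endothelial-like cells had 91.8% and 86.5% of its MPNST-like level, above the 42.3% of dendritic-like cells.

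Members called higher were 5 of 43 in macrophage-like (18.2% of all genes; Plxnb2, Plxnc1, Sema4a, Sema4d and Sema6b), 5 in dendritic-like (14.3%; Epha2, Plxnc1, Sema4a, Sema4d and Sema7a) and 5 in T/NK-like cells (16.4%; Plxnc1, Sema4a, Sema4b, Sema4d and Unc5cl). Members called lower were 18 in macrophage-like (11.9% of all genes), 18 in dendritic-like (18.9%) and 21 in T/NK-like cells (16.8%). Above the largest other class stood 0 in macrophage-like (3.96% of all genes), 1 in dendritic-like (1.85%; Plxnc1) and 1 in T/NK-like cells (4.7%; Unc5cl). The macrophage-like call for Sema6b, at 4.66 ± 1.13 CPM, fell under the log2 limit of 1 under 5 alternatives. Sema7a was at 191.7 ± 61.9 CPM in dendritic-like cells beside 154 ± 67.3 CPM in endothelial-like cells (log2 difference 0.51, adjusted p = 0.166). Sema4a, a semaphorin that costimulates T cells, was at 79.0 ± 20.3 CPM in dendritic-like, 39.9 ± 6.56 CPM in T/NK-like and 14.6 ± 3.79 CPM in macrophage-like cells. Unc5cl, at 31.1 ± 15.8 CPM in T/NK-like cells, had 172 of its 186 UMIs there.

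**Figure D4:**
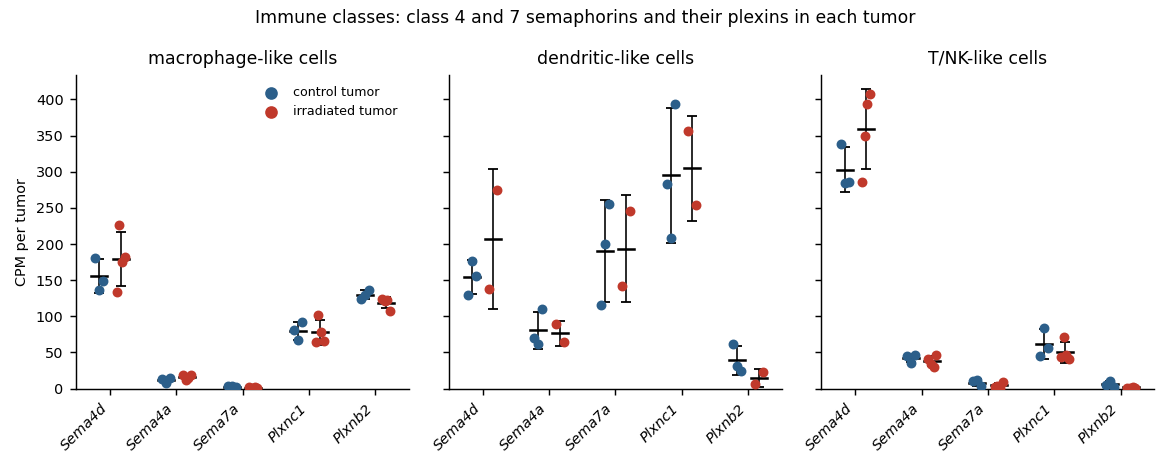
CPM of Sema4d, Sema4a, Sema7a, Plxnc1 and Plxnb2 (y axis, linear and shared) in macrophage-like, dendritic-like and T/NK-like cells, with 1 point per tumor in blue for control and red for irradiated tumors, and black lines for the mean and SD. Sema4d is highest in T/NK-like cells (285 to 407 CPM), and Plxnc1 and Sema7a in dendritic-like cells.

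In macrophage-like cells 0 of 37 members passed the adjusted threshold between irradiated and control tumors (0% of all genes) and 10 passed an unadjusted p of 0.05 (6.09% of all genes), all 10 lower in irradiated tumors. That count was 19 without irradiated tumor 1, 6 and 5 without irradiated tumors 2 and 4, and 3 without control tumor 2. DESeq2 called 0. The median change over the 37 was -0.61, beside -0.01 over all genes, 6 of 37 were positive, and for 6 members the groups did not overlap (5.8% of all genes). Members low in irradiated tumors could pass the filter on low counts through the control tumors, which favors lower values. Nothing is read from these counts and shares or from the median. The 3 with the smallest p were low here: Epha7 at 0.649 to 1.09 CPM in irradiated and 1.86 to 3.22 CPM in control tumors (-1.50 ± 0.30, adjusted p = 0.773), Robo1 at 0.849 to 1.70 against 2.27 to 5.20 CPM (-1.42 ± 0.38) and Unc5c at 0.89 to 6.63 against 8.43 to 19.3 CPM (-1.96 ± 0.61). The positive changes with the smallest p were those of Sema4a (0.39 ± 0.24), Sema6b (0.28 ± 0.25) and Sema4d (0.20 ± 0.18), all 3 called higher in macrophage-like cells than the mean of the other classes. The 18 tumor markers summed to 125 to 178 CPM in macrophage-like cells of control tumors and 50.5 to 135 CPM in those of irradiated tumors. In macrophage-like cells with at most 1 detected tumor marker, 0 of 28 members passed, as did 0 of all 12503 genes, and 3 did so unadjusted (4.93% of all genes). These cells were 60.8%, 94.6% and 95.1% of the class in control tumors 1 to 3 and 89.95% to 95.96% in irradiated tumors. Slit2 in them was at 30.4, 9.60 and 11.2 CPM in control tumors 1 to 3 and 4.06 to 11.1 CPM in irradiated tumors, so control tumor 1 stood apart. The part of tumor RNA in these values was not tested.

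In T/NK-like cells 3 of 14 members passed the adjusted threshold, all lower in irradiated tumors, against 0.713% of all genes (54 genes, of which 52 were lower), and 5 passed an unadjusted p of 0.05 (7.07% of all genes). All 5 were among the members called higher in MPNST-like cells. Robo2, Slit3, Efna5 and Sema3a were at 11.5 CPM or less in every irradiated tumor and entered the test through the control tumors. Lower values were thereby favored among the 14, and nothing is read from these shares. Robo2 was at 1.44, 5.49, 0 and 1.56 CPM in irradiated tumors 1 to 4 and at 19.7, 30.3 and 34.2 CPM in controls (-3.76 ± 0.56, adjusted p = 0.00347). Slit2 was at 20.1, 38.4, 19.0 and 5.45 CPM against 91.0, 101 and 95.6 CPM (-2.35 ± 0.42, adjusted p = 0.0364). Slit3 was at 11.5, 2.75, 8.96 and 9.34 CPM against 24.1, 62.3 and 23.9 CPM (-2.15 ± 0.44, adjusted p = 0.0350). The groups did not overlap for these 3, nor for Efna5 and Sema3a, which had an adjusted p of 0.0506 each. That made 5 of 14 members free of overlap beside 8.43% of all genes, a share that the filter favored in the same way and from which nothing is read. Within the 2 sets of libraries inferred from the data, the log2 changes were -4.0 and -3.34 for Robo2, -2.26 and -2.46 for Slit2 and -1.70 and -1.85 for Slit3. Groups without overlap give the same direction in any split of the tumors, so nothing is read from that direction. With the set as a term in the edgeR test, Robo2 passed (adjusted p = 0.00616), and Slit2 (0.148) and Slit3 (0.0724) did not. Under the stricter gate Slit2 passed (adjusted p = 0.0482), Slit3 did not (0.0871), and Robo2 was not tested.

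The tumor markers moved with these calls. Their sum in T/NK-like cells was 231 to 418 CPM in control and 35.0 to 91.9 CPM in irradiated tumors, while in MPNST-like cells it was 5101 to 5482 and 5206 to 5954 CPM. Slit2 in T/NK-like cells stood at 4.86% of its MPNST-like level in control and 0.975% in irradiated tumors, Robo2 at 4.78% and 0.324%, and Slit3 at 3.86% and 0.624%. Pooled over all tumors, they stood at 2.31%, 1.81% and 1.72% in this order, beside a median of 2.47% (0.96% to 3.51%) for 10 tumor markers pooled likewise. T/NK-like cells with at most 1 detected tumor marker made up 78.3% to 95.6% of the class in control and 96.6% to 98.6% in irradiated tumors, and in these cells 0 of 9 members passed, as did 0 of all 7302 genes, and 1 did so unadjusted (5.61% of all genes). Robo2, Slit3, Efna5 and Sema3a fell under the filter on low counts there and were not tested. There Slit2 was at 21.7 to 29.6 CPM in control and 4.75 to 20.5 CPM in irradiated tumors (-1.06, adjusted p = 0.866), Robo2 at 0 to 12.5 against 0 to 2.77 CPM and Slit3 at 1.88 to 21.8 against 1.39 to 11.7 CPM, so the groups overlapped for the last 2 and not for Slit2. A further alternative kept the cells of several gates, among them cells of a host gate with 7 or more tumor markers. There 0 of 27 members passed, as did 0 of all 9357 genes, and 6 did so unadjusted (6.97% of all genes). The part of tumor RNA in the 3 calls was not tested. With 1 tumor left out, Robo2 was called in each of the 7 fits, Slit2 without irradiated tumor 2 or 4, and Slit3 without irradiated tumor 1 or control tumor 1 or 3. Without irradiated tumor 2, Epha3 was called higher (1.80 ± 0.32, adjusted p = 0.0140), and without control tumor 2 Robo2 was the 1 call made. Unc5cl, the upward member with the smallest p, had a change of 0.89 ± 0.43 that did not pass (adjusted p = 0.727).

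**Figure D5:**
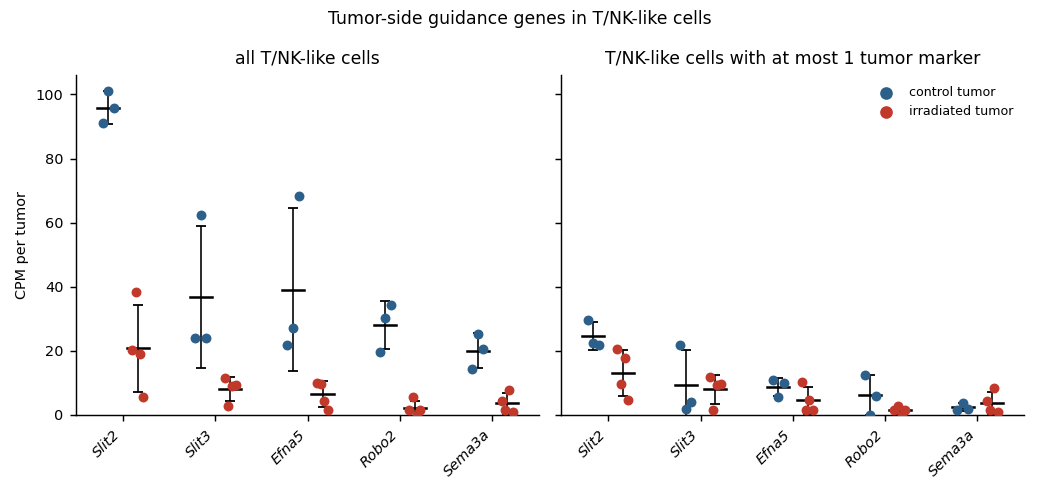
CPM of 5 tumor-side members (y axis, linear and shared) in all T/NK-like cells (left) and in those with at most 1 detected tumor marker (right), with 1 point per tumor in blue for 3 control and red for 4 irradiated tumors, and black lines for the mean and SD. Control values of Slit2 stand at 91.0 to 101 CPM on the left and at 21.7 to 29.6 CPM on the right.

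In dendritic-like cells 0 of 8 members passed (0% of all genes), 1 did so unadjusted (2.98% of all genes) and DESeq2 called 0. This was Plxnb2, at -1.37 ± 0.63 (adjusted p = 0.999), and Sema4d had the positive change with the smallest p, 0.44 ± 0.32. The difference between the irradiation changes of MPNST-like and macrophage-like cells was tested for 56 members. Of these, 0 passed the adjusted threshold (0% of all genes) and 15 passed an unadjusted p of 0.05 (6.41% of all genes). The smallest p belonged to Epha7 (1.52 ± 0.26, adjusted p = 0.270) and Robo1 (1.45 ± 0.32, adjusted p = 0.439). For Epha7 the separate changes were -0.0078 (MPNST-like) and -1.50 (macrophage-like), and for Robo1 they were 0.066 and -1.42. Both genes were low in macrophage-like cells, with at most 3.22 and 5.20 CPM. With host cells of at most 1 detected tumor marker, 0 of 56 members passed. There 9 did so unadjusted, beside 792 of all 16513 genes. The part of tumor RNA in these differences was not tested.

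Of 60 other genes of these pathways (co-receptors, partners and mediators inside the cell), 53 were tested between classes. In MPNST-like cells 14 were called higher and 9 lower (20.8% and 11.4% of all genes), with Met, the receptor of hepatocyte growth factor and a partner of plexins, at 4.14 and Rgma, a ligand of neogenin, at 3.95 on the log2 scale. In macrophage-like cells 8 were higher and 17 lower (18.2% and 11.9%), with Cd72, an immune receptor of Sema4d, at 7.01 and Fes, a kinase that binds plexins, at 3.37. In T/NK-like cells 13 were higher and 17 lower (16.4% and 16.8%), and in dendritic-like cells 11 and 16 (14.3% and 18.9%). In endothelial-like cells 17 were higher and 4 lower (14.9% and 9.51%), with Rnd1, a GTPase that binds plexins, at 5.94. In pericyte-like cells 15 were higher and 6 lower (16% and 8.63%), with Itga1 at 5.26, and in fibroblast-like cells 15 and 5 (19.7% and 9.89%), with Neo1, a netrin receptor, at 4.61. With irradiation 0 passed in each of the 7 classes. In MPNST-like cells 2 of 54 passed an unadjusted p of 0.05 (1.23% of all genes), Dcc, the netrin receptor, at -1.42 and Limk1, a kinase of the actin skeleton, at 0.40 (adjusted p = 0.99991 each), and in macrophage-like cells 5 of 48 (6.09% of all genes), among them Nrp2, the neuropilin, at -0.51 (adjusted p = 0.773).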

How the data were processed

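The authors deposited 1 matrix of UMI counts (genes by called cells) for each of 7 libraries, and the file headers name Cell Ranger 8.0.0. The study names another version and the mm10 build, the submitters' processing notes name Seurat 4.4, and the build of the files is not given in the sources used here, so gene coordinates come from RefSeq alone. Groups came from the sample labels. No column of per-sample values was left unused.

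Cells within 3 median absolute deviations of their library were kept. Classes were set by the number of detected markers (13 lists), with thresholds chosen from the marker counts. The MPNST-like gate also required that Xist was not detected, and the fibroblast-like gate that it was. Left out were 3943 cells that passed no gate and 1158 called cells of several gates. The latter passed several gates, or a host gate while showing 7 or more tumor markers. No doublet caller was run. Host cells of 1 gate with fewer than 7 tumor markers stayed, and doublets among them were not tested. Dendritic-like, T/NK-like and other class names are gates, not clusters. UMIs were summed per tumor and class and tested over all genes with edgeR 4.0.16 (quasi-likelihood, filterByExpr, TMM, robust; R 4.3.3), with Benjamini-Hochberg adjustment. DESeq2 1.42.0 was an alternative. P-values of irradiated against control tumors within a class measure the spread between tumors, which may in part be technical. Those of the comparisons between classes, with the tumor as a block, measure the spread left after differences between tumors are taken out. The scripts were tested on simulated data.

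The members and lists were chosen with earlier results of these data known. The rule named, per class, up to 5 members of highest mean CPM among those called higher, and per irradiation comparison up to 3 (MPNST-like and macrophage-like) or 1 per direction with the smallest p, and every member called. Other members were given after their values were seen. Counting by strand was not stated, so Plxna4 and its antisense genes may share reads.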

Additional observations from a re-analysis of the deposited data

Results flagged for a closer look

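Each named member was checked for a tumor far from the rest of its group in the irradiated group, in the classes where all 4 irradiated tumors entered. In 27 such groups of 4, no tumor stood apart by Dixon's criterion, which chance passes in about 1 of 20 groups. The change with irradiation differed between MPNST-like and macrophage-like cells for 0 members at an adjusted p under 0.05.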

How the results depend on the processing

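Over the alternatives, 189 of 212 counts of called members stayed within 1.5 times the reported one. Counts of 0 that stayed at 0 are among them, and the reported irradiation count was 0 in every class but T/NK-like. In T/NK-like cells the 3 calls with irradiation became 8 with every gene of at least 1 UMI tested, 5 with DESeq2, 1 with the replicate number as a replicate block, 0 with cells of several gates kept, 0 in cells with at most 1 tumor marker (chosen after seeing the data) and 1 to 4 when 1 tumor was left out, the lowest without control tumor 2. These calls were all lower in irradiated tumors, except for Epha3 without irradiated tumor 2, where 1 was higher and 2 were lower. With every gene tested, 1 member was called in endothelial-like (Sema7a) and 1 in fibroblast-like cells (Unc5c), and 1 in fibroblast-like cells under the stricter gate. In the class comparisons, testing every gene gave 36 members in MPNST-like, 9 in macrophage-like, 8 in dendritic-like, 9 in T/NK-like and 32 in fibroblast-like cells, where more members were tested. Keeping cells of several gates gave 11 in pericyte-like and 12 in fibroblast-like cells. Against the largest other class in place of the mean, the counts were 7 in MPNST-like, 0 in macrophage-like, 1 in dendritic-like, 1 in T/NK-like, 12 in endothelial-like, 3 in pericyte-like and 2 in fibroblast-like cells. The cause of these shifts was not tested, apart from the larger or smaller sets of genes and cells.

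Against the largest other class the sign of the difference turned for members shared with a class of higher level: Slit3 in MPNST-like (-0.35) and pericyte-like (-0.18), Sema4d (-0.72), Plxnc1 (-1.67), Sema4a (-2.12) and Sema6b (-2.74) in macrophage-like, Sema4d (-0.87) and Epha2 (-0.90) in dendritic-like, Plxnc1 (-2.49) and Sema4a (-0.93) in T/NK-like, Sema6d (-0.14) and Robo1 (-0.21) in endothelial-like, Sema5a (-0.075) and Robo1 (-0.56) in pericyte-like, and Slit2 (-1.93) and Efna5 (-2.31) in fibroblast-like cells. With irradiation, Sema4d in dendritic-like cells ran from -0.14 to 0.81 when 1 tumor was left out, turning negative without irradiated tumor 4, and with cells of several gates kept Slit2 in pericyte-like cells turned to 0.55 and Unc5c in fibroblast-like cells to -1.03. None of these 3 passed the adjusted threshold in those settings. Other size factors, all deposited cells and the set of libraries inferred from the data as a term moved no count past 1.5 times. In T/NK-like cells Slit2 and Slit3 were still not called with that term. The shared replicate numbers did not pair the tumors (correlations of the deviations -0.43, -0.07 and 0.10), and the replicate block changed no count of called members apart from the T/NK-like one. Depth limits the small classes most: dendritic-like, pericyte-like and fibroblast-like cells number 185, 192 and 230 in all.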
